A study of Mus musculus with 2 samples.

Results

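Trem2, Tyrobp, Apoe, Gpnmb, Fabp5, Plin2, Lpl, Abca1, Cd36 and Lgals3 are genes of the lipid-associated state of tissue phagocytes. They were read as 10 rows of the deposited gene table, found by symbol, out of 32287 genes. The data were 2 droplet single-cell RNA libraries from hind limb muscle of C57BL/6J mice, taken 7 days after bilateral crush of the peroneal nerve. One library came from mice given goat anti-mouse IgG and the other from mice given the SPP1-neutralizing antibody (SPP1nAb), each as 2 μg in 10 μL into the tibialis anterior every 2 days. Mice were males of 10 to 16 weeks, pooled, and the number pooled was not given. The study's methods name S100GFP-tg mice, in which the S100B promoter drives GFP, and the tibialis anterior for this experiment, while the labels name C57BL/6J and both tibialis anterior and gastrocnemius. The methods state that live GFP-positive and GFP-negative cells were sorted, while the sample titles name S100GFP-pos. How the fractions were mixed was not given, so shares of cell classes also carry an unknown sort. Each group has 1 library, so no test between antibodies was possible and every interval below covers counting error only.

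TREM2 is a lipid-sensing receptor of macrophages and microglia that signals through the adaptor TYROBP. In tissue with much debris to clear, phagocytes that carry TREM2 take up lipid through scavenger receptors, store it in droplets and pass cholesterol to apolipoprotein E. Spp1, which encodes osteopontin, the target of the antibody, is often made by the same cells. In nerve injury these cells clear myelin. The 10 genes are described here by role: the receptor and its adaptor, lipid uptake and storage (Cd36, Lpl, Fabp5, Plin2), sterol efflux (Abca1, Apoe) and the lysosomal and glycan-binding products Gpnmb and Lgals3.

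After filtering, 21047 cells of the IgG library and 22282 of the SPP1nAb library remained, with 81393507 and 107419962 UMIs and medians of 3636 and 4565 UMIs per cell. A total of 163 barcodes occurred in both libraries, which is 0.685% and 0.650% of their barcodes. Mononuclear phagocytes, gated on 12 markers that include none of the 10 genes and not Spp1, made up 12459 cells (59.2%) and 15617 cells (70.1%), and all 12 markers were at least 1.5-fold above the other classes in both libraries. The gate uses these same markers, so their higher level is partly fixed in advance and does not test the label. Levels are given as CPM, a gene's UMIs per 1000000 UMIs of the summed cells, and are compared within a gene only, never between genes. RNA from outside the cell, estimated from 6 mesenchymal genes found in phagocytes, came to 1.21% of phagocyte UMIs in the IgG library and 2.42% in the SPP1nAb library.

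Sequence before the transcript start is shown for 4 genes whose patterns the results turn on: Trem2, for the receptor, Abca1, for the sterol genes that peaked outside the lipid-handling cells, and Gpnmb with Spp1, the pair with the highest correlation among the 10 genes and Spp1. The 150 bases before the start are from RefSeq on GRCm38.p6, written 5′ to 3′ on the strand of the gene, and capitals mark letters that match a searched motif. The stretches lie at chr17:48346251-48346400 (plus strand) for Trem2, chr4:53159896-53160045 (minus strand) for Abca1, chr6:49036368-49036517 (plus strand) for Gpnmb and chr5:104434961-104435110 (plus strand) for Spp1.
Trem2: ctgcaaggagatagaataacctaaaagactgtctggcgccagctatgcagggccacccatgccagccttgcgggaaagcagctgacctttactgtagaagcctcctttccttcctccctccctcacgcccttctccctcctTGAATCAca
Abca1: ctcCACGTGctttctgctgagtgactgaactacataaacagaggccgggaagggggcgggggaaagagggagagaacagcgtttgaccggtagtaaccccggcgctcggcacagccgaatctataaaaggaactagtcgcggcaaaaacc
Gpnmb: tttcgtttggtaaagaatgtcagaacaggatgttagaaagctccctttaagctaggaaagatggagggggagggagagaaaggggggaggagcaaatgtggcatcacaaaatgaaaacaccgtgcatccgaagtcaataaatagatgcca
Spp1: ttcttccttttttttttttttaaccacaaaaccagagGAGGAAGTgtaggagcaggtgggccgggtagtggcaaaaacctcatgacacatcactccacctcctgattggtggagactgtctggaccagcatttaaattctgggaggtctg

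Motifs were searched on both strands in the 250 bases before the start. RefSeq entries were matched for 8 of the 11 genes, the 10 and Spp1. TGANTCA was searched as a loose form of the AP-1 motif, with any base at N. In Trem2 it matched as TGAATCA, beginning 9 bases before the start. The loose form is held by 6.75% of all 32851 promoters. CACGTG, the E-box, began 147 bases before the start of Abca1 and is held by 6.02% of promoters. GAGGAAGT began 113 bases before the start of the Spp1 entry shown, with 2.44% of promoters holding it. The 8 matched genes had 11 entries. The Spp1 entry was picked for holding a searched motif before its start, so that share is not a fair background for it. For Trem2, Abca1 and Gpnmb the first entry was shown. No searched motif lay wholly before the start of Gpnmb, whose TGACTCA began at base 9 after it, and the Plin2 TCACGTG, which contains CACGTG, began 5 bases before the start and ran across it. TCATGTG, which 3.25% of promoters hold, was not in the windows of the matched genes, nor were the nuclear receptor elements direct repeat 4 and direct repeat 1, which 0.0152% and 0.0335% hold. No searched motif was thus shared by Trem2, Abca1, Gpnmb and Spp1 in these windows.

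Trem2 had nearly all of its UMIs in mononuclear phagocytes, whereas the other 9 genes were also found in some other class above the level of stray RNA. Of all Trem2 UMIs, 99.1% in the IgG library and 99.0% in the SPP1nAb library were in phagocytes. The Trem2 level (gene at chromosome 17, 48653429 to 48661175, GRCm39, plus strand) was 207 CPM in IgG phagocytes and 270.2 in SPP1nAb phagocytes. In mesenchymal cells it was 1.91 and 2.52. With each cell thinned to 2000 UMIs, 28.0% and 34.5% of phagocytes had a Trem2 UMI against 0.392% and 0.507% of mesenchymal cells; the unthinned shares were 41.8% and 53.6% against 0.916% and 1.74%, at median depths of 3956 and 4960 UMIs for phagocytes and 4816 and 7766 for mesenchymal cells.

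Tyrobp (chromosome 7, 30113170 to 30117010, plus strand), the adaptor that TREM2 shares with several other receptors of myeloid and NK cells, was also found in the other leukocytes. Its level was 1699.9 and 1886 CPM in phagocytes of the IgG and SPP1nAb libraries. It was 5957 and 5627 in neutrophils, 961 and 1039 in dendritic cells and 1229.7 and 1147 in T and NK cells. Neutrophils were thus the highest class by CPM in both libraries, on 365 and 923 cells. Their median depths were 1238 and 1380 UMIs per cell, against 3956 and 4960 in phagocytes. CPM is a share of a class's UMIs, and Tyrobp UMIs per cell were not compared. In mesenchymal cells, which should lack it, Tyrobp was at 18.0 and 32.3, and this level was used as the yardstick of stray phagocyte RNA: if the other genes had come with Tyrobp in the proportion seen in phagocytes, Trem2 would have stood at 2.20 and 4.63 there, above the measured 1.91 and 2.52. Trem2 stayed below this yardstick in the other non-leukocyte classes too, except in mural cells of the IgG library, where it rested on 3 UMIs in 101 cells.

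Several genes stood far above the same yardstick outside the phagocytes. Cd36, a fatty acid and oxidized lipoprotein receptor (chromosome 5, 17986432 to 18094067, minus strand), stood at 3341 and 2315 CPM in endothelial cells against 645 and 528 in phagocytes, 116 and 84.3 times the level expected from Tyrobp. Endothelial cells held 6.04% and 3.59% of Cd36 UMIs. Lpl, the lipoprotein lipase (chromosome 8, 69284603 to 69360100, plus strand), was at 716 and 525 in mesenchymal cells against 576 and 546 in phagocytes. Mesenchymal cells held 22.7% of Lpl UMIs in the IgG library and 8.28% in the SPP1nAb library, where they were 11.9% and 4.65% of cells. Fabp5, a cytosolic fatty acid carrier (chromosome 3, 10077602 to 10081674, plus strand), reached 962 and 1006 in endothelial cells, 14.1 and 7.61 times the expected level.

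Apoe (chromosome 7, 19430034 to 19434947, minus strand), the apolipoprotein that accepts exported cholesterol, was at 6439.9 and 6552 CPM in phagocytes and 1245 and 1095 in satellite cells or myoblasts, 19.2 and 14.0 times the level expected from Tyrobp. Abca1, the cholesterol exporter (chromosome 4, 53030787 to 53159900, minus strand), was at 244 and 229.5 in Schwann cells, and Lgals3, galectin-3 (chromosome 14, 47605208 to 47623624, plus strand), at 643 and 832 there. The Schwann cell levels were 63.6 and 18.5 times expectation for Abca1 and 28.7 and 10.00 times for Lgals3. Gpnmb, a transmembrane glycoprotein of lysosome-rich cells (chromosome 6, 49013426 to 49047863, plus strand), stood at 71.5 and 87.0 in tenocytes against 106 and 182 in phagocytes. Plin2, which coats lipid droplets (chromosome 4, 86565912 to 86588459, minus strand), was at 37.2 and 49.7 in mesenchymal cells, 8.45 and 5.49 times expectation, and at 415 and 529 in phagocytes. Spp1 was at 61.7 and 124 in mesenchymal cells, 7.33 and 6.46 times expectation. B cells, with 4 and 3 cells, were too few to read.

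Within the phagocytes, 10 states were gated by marker lists that hold neither Spp1 (chromosome 5, 104582165 to 104589235, plus strand) nor any of the 10 genes. Cells scoring under 0.5 on every list were left unstated, 18.0% and 19.3% of phagocytes. The lipid-handling gate (Atp6v0d2, Syngr1, Ctsk, Acp5, Cd63, Cd9, Mmp12) took 728 cells (5.84%) of the IgG and 2094 cells (13.4%) of the SPP1nAb phagocytes, of which 75 and 122 scored below 0.6 and so lay near the limit. All 7 of its markers were at least 1.5-fold above the other states, and its cells carried a median of 4.0 of these 7 and equally 4.0 of the 7 MHC-II-high markers. The values for its own 7 markers are partly fixed in advance, since the gate asks for them, and do not test the label. At 2000 UMIs per cell, a median of 7.0 and 8.0 of the 10 genes was detected in these cells. The median was 5.0 in all phagocytes of each library, which include them, and 6.0 in inflammatory cells of each library. These counts have no background from all genes.

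Gpnmb, Fabp5, Lgals3, Lpl, Cd36 and Trem2 were at least 2-fold higher in lipid-handling cells than in all other phagocytes of the same library, in both libraries. That is 6 of the 10 genes, where 1.27% of 10829 genes tested passed the same limit. The 10 genes and the marker lists were chosen with earlier results of these data known, so that share is not a fair background. Gpnmb was at 582 against 64.0 CPM in the IgG library and 622 against 90.3 in the SPP1nAb library, a log2 ratio of 3.18 (95% interval 3.11 to 3.26) and 2.78 (2.74 to 2.83). Fabp5 was at 6667 against 1072 and 6921 against 1627, log2 ratios of 2.64 (2.62 to 2.66) and 2.09 (2.08 to 2.10). Gpnmb thus had the widest gap of the 10 genes, and Fabp5 the next, in each library.

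Lgals3 stood at 7211 against 1747 CPM in the IgG library and 6465 against 2251 in the SPP1nAb library, 4.13-fold and 2.87-fold. Lpl was 3.84-fold and 3.10-fold higher, at 1796 against 467 and 1244 against 401. Cd36 was 3.27-fold and 3.14-fold higher, at 1775 against 544 and 1211 against 386. For Trem2 itself the gap was 2.70-fold and 2.45-fold, at 492 against 182 and 529.5 against 216. All 6 ratios were smaller in the SPP1nAb library, and the difference between libraries was not tested. Where Leiden clusters replaced the per-cell gates, 3 of the 6 passed (Trem2, Gpnmb, Fabp5), and Lgals3, Lpl and Cd36 were under 2-fold in the SPP1nAb library.

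Plin2 lay at the limit, with 887 against 373 CPM (2.38-fold) in the IgG library and 879 against 456 (1.93-fold) in the SPP1nAb library. Tyrobp was 1.14-fold and 1.33-fold higher in lipid-handling cells. Abca1 was at 376 against 375 in the IgG library and 500.4 against 434 in the SPP1nAb library. Apoe lay on either side of 1, at 5923 against 6486 (0.913-fold) and 8602 against 6124 (1.40-fold). Under Leiden clusters the log2 ratio was 0.28 and 0.75 for Apoe and 0.35 and 0.51 for Abca1, so that in the SPP1nAb library Apoe lay beside Lgals3 (0.75) and Cd36 (0.78). The median log2 ratio over all genes tested was -0.092 and -0.068.

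**Figure D1:**
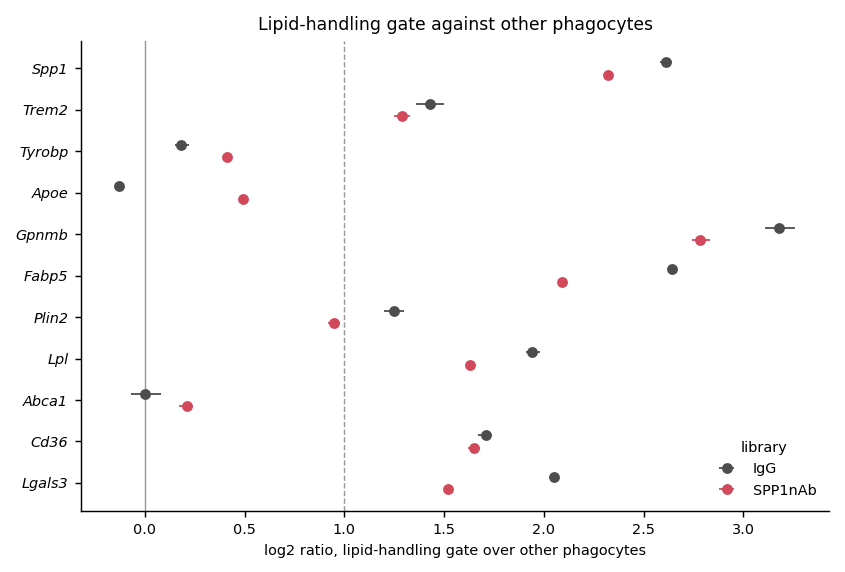
Log2 ratio of the level in lipid-handling cells over all other phagocytes for Spp1 and the 10 genes (rows), with the IgG library in gray and the SPP1nAb library in red; bars are 95% counting intervals, the solid line marks no difference and the dashed line 2-fold. Gpnmb lies farthest right at 3.18 and 2.78, and Abca1 sits at 0.00 and 0.21.

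Across the 10 states, 7 of the 10 genes were highest in lipid-handling cells in the SPP1nAb library and 6 in the IgG library, where Lpl was at 1853 CPM in Dcstamp and Ear2 cells and 1796 in lipid-handling cells, with overlapping intervals. The share of all genes that were highest in this state was not computed, so these counts have no background. Apoe was highest in the Gpr34 and Fcrls state, at 12266 in the IgG and 12715 in the SPP1nAb library, followed by resident cells at 10641 and 10774. Abca1 was highest in the same pair of states, at 597 and 796 in Gpr34 and Fcrls cells and 603 and 769 in resident cells, which did not differ beyond their counting intervals. Tyrobp was highest in circulating-type monocytes at 2767 and 2830.0, on only 43 and 35 cells, and was lowest in cycling cells at 1074 and 1146. Its highest state was 2.58 and 2.47 times its lowest, the narrowest range of the 10 genes.

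Gpnmb and Fabp5 fell to low levels in resident cells. Gpnmb was at 2.49 CPM (18 UMIs) in IgG resident cells and 9.39 (56 UMIs) in SPP1nAb resident cells, and no Gpnmb UMI was found in circulating-type monocytes. The limit that 0 UMIs allows there was 19.8 and 25.0 CPM. Inflammatory and interferon-response cells came next after lipid-handling cells, at 140.3 and 151 in the IgG library and 159 and 156 in the SPP1nAb library, and these neighbours did not differ beyond their intervals. Fabp5 was at 96.5 and 314 in resident cells and 2686 and 3067 in inflammatory cells. Trem2 followed another order, with Gpr34 and Fcrls cells second at 249 and 283 (not beyond its interval from inflammatory cells, at 259, in the SPP1nAb library), and classical monocytes low at 91.7 and 89.8.

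**Figure D2:**
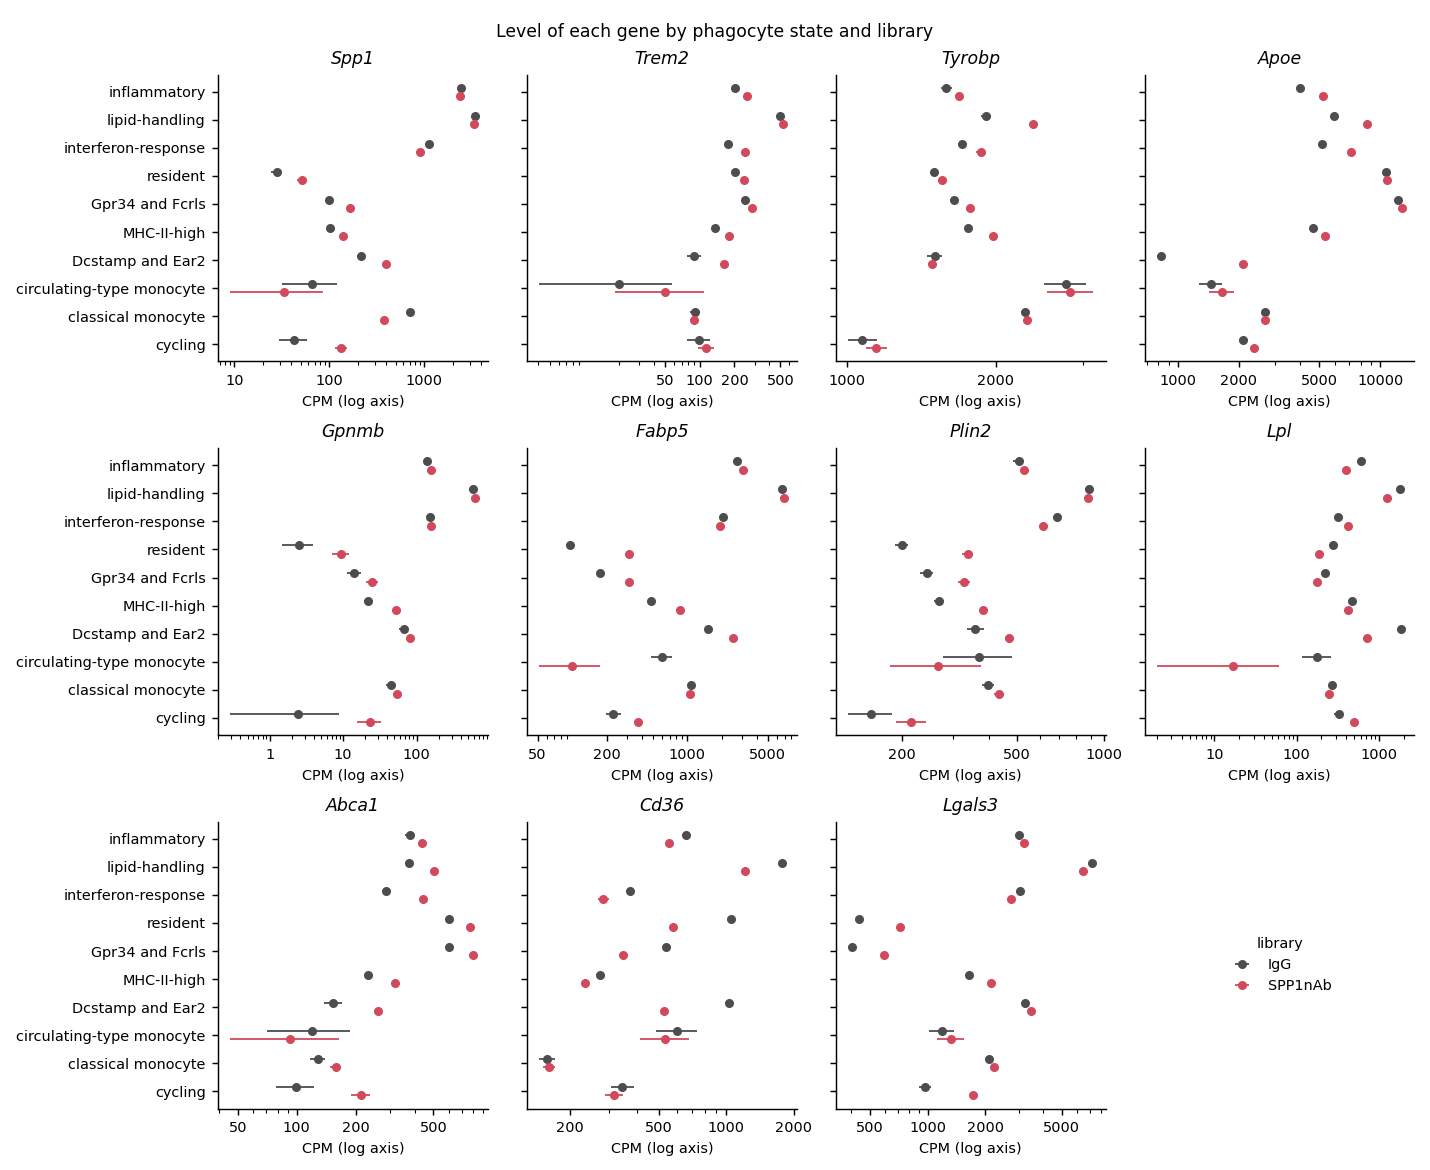
Level of Spp1 and each of the 10 genes (panels) in the 10 phagocyte states (rows), in CPM on a log axis that differs between panels; gray is the IgG library, red the SPP1nAb library, bars are 95% Poisson intervals, and states with 0 UMIs (Gpnmb in circulating-type monocytes) are not drawn. Gpnmb, Fabp5 and Lgals3 peak in lipid-handling cells, whereas Apoe and Abca1 peak in resident and Gpr34 and Fcrls cells.

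Spp1 itself stood at 3411 and 3308 CPM in lipid-handling cells and 2460.1 and 2354 in inflammatory cells, and at 27.9 and 51.6 in resident cells. Leiden clusters gave the reverse order for the top pair. With both libraries summed, Spp1 was at 2169.6 in the inflammatory and 1575 in the lipid-handling cluster. Its log2 ratio of the lipid-handling cluster over other phagocytes was 1.15 in the IgG and 0.69 in the SPP1nAb library, the latter under 2-fold. Over the 20 points made by 10 states in 2 libraries, Pearson's r of log2(CPM + 10) with Spp1 was 0.95 for Gpnmb, 0.92 for Fabp5, 0.88 for Plin2 and 0.81 for Lgals3. It was 0.58 for Lpl and 0.55 for Trem2. It was 0.22 for Abca1, 0.20 for Cd36, 0.15 for Tyrobp and 0.14 for Apoe. The median over the 10 genes was 0.57, against -0.02 over 5656 genes with a mean of at least 20 CPM, of which 1.64% reached 0.8. These points share libraries, depth and animals, so the coefficients are descriptions. The 10 genes were chosen with earlier results of these data known, so the median over all genes is not a fair background.

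The lipid-handling state carried part of these relations for some genes and little for others. Without its 2 points, r was 0.93 for Gpnmb, 0.89 for Fabp5, 0.82 for Plin2 and 0.73 for Lgals3. It was 0.42 for Lpl, 0.34 for Trem2 and -0.21 for Cd36. The median of the 10 genes was then 0.38. Spearman's rho over all 20 points was 0.95 for Gpnmb and 0.47 for Trem2.

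Among themselves the genes fell into blocks. Gpnmb, Fabp5, Plin2 and Lgals3 had pairwise r from 0.80 to 0.93. Apoe and Abca1 had r = 0.90 with each other, 0.19 and 0.31 with Gpnmb, and -0.30 and -0.18 with Lgals3. Trem2 had r = 0.82 with Abca1, 0.77 with Apoe and 0.67 with Gpnmb, and so stood nearer the sterol efflux genes than the Spp1-like block. With its own adaptor Tyrobp it had r = -0.24. Circulating-type monocytes were the highest state for Tyrobp and the lowest for Trem2 in both libraries. Trem2 rested there on 3 and 6 UMIs in 43 and 35 cells. How far this r depends on those points was not tested.

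**Figure D3:**
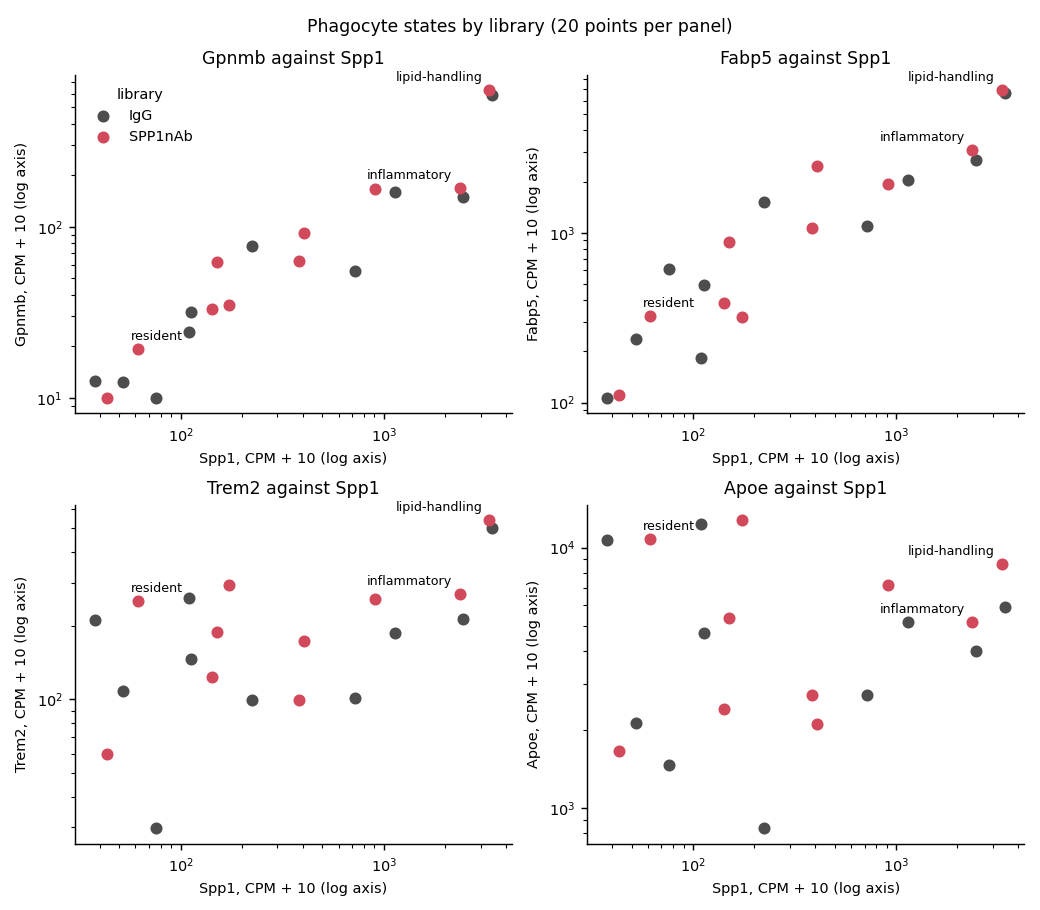
Level of Gpnmb, Fabp5, Trem2 and Apoe (vertical axes) against Spp1 (horizontal axes) in CPM + 10, both log axes; each panel has 20 points, 1 per state and library, gray for IgG and red for SPP1nAb. Gpnmb and Fabp5 rise with Spp1 (r = 0.95 and 0.92), Trem2 less so (r = 0.55), and Apoe shows little relation to it (r = 0.14).

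The 5 genes most like Trem2 over the 20 points, among genes with a mean of at least 20 CPM that mark no gate, were Tmem37 (r = 0.944), Glmp (0.920), Fmn1 (0.915), Pdgfa (0.911) and Dnase2a (0.907). For Gpnmb they were Ctsz (0.957), Cstb (0.956), Spp1 (0.946), Alas1 (0.939) and Akr1a1 (0.938). For Spp1 they were Alas1 (0.967), Cstb (0.949), Mmp14 (0.948), Gpnmb (0.946) and Gde1 (0.942). Ctsz encodes a lysosomal cysteine protease and Cstb an inhibitor of such proteases. Gpnmb and Spp1 were therefore in each other's lists, and Trem2 was in neither.

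In the IgG library, 19.2% of phagocytes at 2000 UMIs per cell had an Spp1 UMI, and 28.3% in the SPP1nAb library. Without thinning, the shares were 23.9% and 36.6%, and in dendritic cells, at median depths of 5349 and 6077 UMIs, the thinned shares were 5.49% and 6.58%. Trem2, Gpnmb, Fabp5, Plin2, Lpl and Lgals3 were at least 1.5-fold higher in Spp1-positive than in Spp1-negative phagocytes in both libraries. That was 6 of 10 genes against 3.02% of 9204 genes tested, and the way the 10 were chosen limits that background too. Gpnmb was at 301 against 35.1 CPM in the IgG library and 359 against 70.3 in the SPP1nAb library, 8.55-fold and 5.11-fold. Trem2 was at 334 against 170.1 and 395 against 208, 1.96-fold and 1.90-fold. Abca1 was at 358 against 394 and 456 against 456.

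Inside the lipid-handling gate the gap between Spp1-positive and Spp1-negative cells was under 1.5-fold in at least 1 library for all 10 genes, where 0.859% of 2444 genes passed. Spp1-positive cells were 66.1% and 68.4% of that gate. Gpnmb still had 650.2 against 354 CPM in the IgG library (log2 ratio 0.88, 0.63 to 1.13) and 665 against 453 in the SPP1nAb library (0.55, 0.42 to 0.69), or 1.84-fold and 1.47-fold. Trem2 was 1.21-fold and 1.10-fold higher, and Lgals3 1.03-fold and 1.01-fold. The gap over all phagocytes was thus much narrower among cells already gated as lipid-handling.

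In other states some of the gap was present. Among inflammatory cells, 4 of the 10 genes passed (Gpnmb, Fabp5, Cd36, Lgals3) where 1.96% of all genes did, and Gpnmb was 3.62-fold and 3.79-fold higher in Spp1-positive cells. Among interferon-response cells, 5 passed (Trem2, Gpnmb, Fabp5, Cd36, Lgals3) against a background of 2.78%. Among classical monocytes, 6 of 9 tested passed (Trem2, Apoe, Fabp5, Plin2, Cd36, Lgals3), with 3.41% of all genes. Gpnmb was not tested there, with under 100 UMIs in at least 1 library. Among resident cells 2 of 9 passed against 1.32%, among Gpr34 and Fcrls cells 2 of 9 against 0.956%, among MHC-II-high cells 3 of 9 against 1.11%, and among Dcstamp and Ear2 cells 2 of 8 against 1.55%. Gpnmb had too few UMIs to be tested in each of these states too, as had Trem2 in Dcstamp and Ear2 cells. Fabp5 passed in each of the 7 states tested other than the lipid-handling gate, but the resident state is 1 of these. Spp1-positive cells were 6.74% and 11.1% of Gpr34 and Fcrls cells and 8.55% and 11.2% of MHC-II-high cells. The dendritic shares were 5.49% and 6.58%. With the estimated stray part removed, Spp1 went from 99.5 and 164 CPM to 90.8 and 148 in Gpr34 and Fcrls cells. In MHC-II-high cells it went from 103 and 141 to 98.5 and 126. The part of stray RNA in the splits themselves was not tested. In the resident state 48 and 72 cells, or 2.73% and 6.00%, had an Spp1 UMI, which is not above the 5.49% and 6.58% of dendritic cells. Whether the split of resident cells follows Spp1 expression or stray RNA was not tested, and no result is drawn from it.

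**Figure D4:**
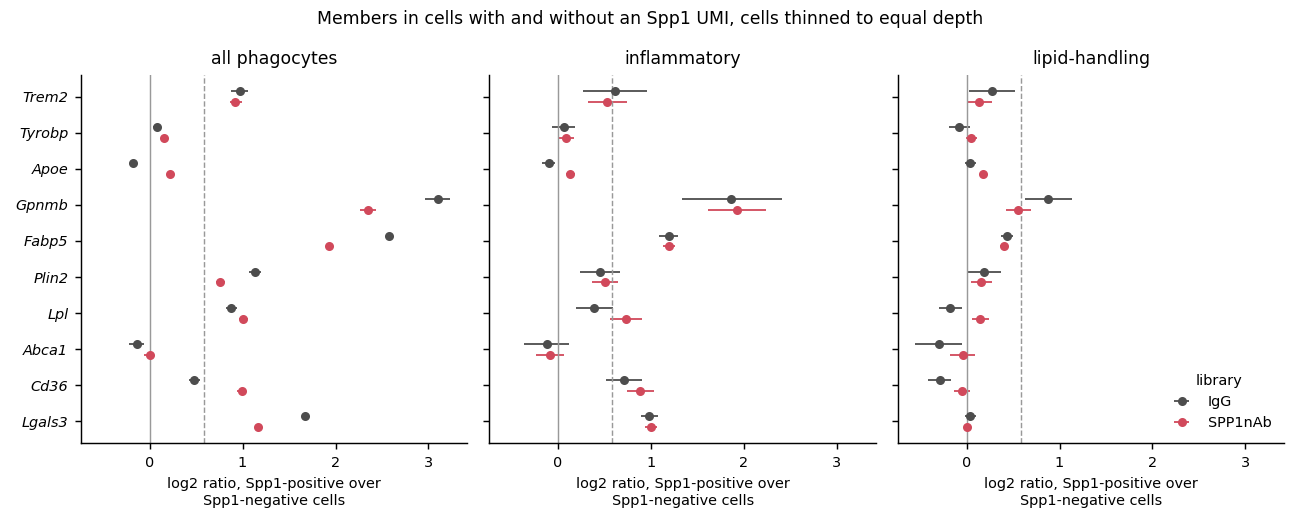
Log2 ratio of each gene in cells with an Spp1 UMI over cells without one, with every cell thinned to 2000 UMIs and Spp1 left out of the total, in all phagocytes, inflammatory cells and lipid-handling cells; gray is IgG, red SPP1nAb, bars are 95% counting intervals and the dashed line marks 1.5-fold. Gpnmb lies at 3.10 and 2.35 over all phagocytes and at 0.88 and 0.55 among lipid-handling cells.

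Between the libraries, over all phagocytes, Gpnmb and Fabp5 were at least 1.5-fold higher with SPP1nAb than with IgG, and none of the 10 genes was 1.5-fold lower. Of 12503 genes tested, 2.95% were 1.5-fold higher and 8.21% lower, 11.2% in either direction, and 2 of 10 is read against that. Gpnmb was at 106 CPM in the IgG library and 182 in the SPP1nAb library, a log2 ratio of 0.78 (0.73 to 0.82). Fabp5 was at 1530.1 and 2542, a log2 ratio of 0.73 (0.72 to 0.74). Spp1 was at 793 and 1118, a log2 ratio of 0.50 (0.48 to 0.51). The median over all genes tested was -0.038.

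The other genes differed less. Lgals3 was at 2195 and 2979 CPM (log2 ratio 0.44), Trem2 at 207 and 270.2 (0.38), Plin2 at 415 and 529 (0.35) and Abca1 at 375 and 445 (0.25). Tyrobp had a log2 ratio of 0.15 and Apoe of 0.02. Lpl was at 576 and 546 (-0.08) and Cd36 at 645 and 528 (-0.29). Cd36 and Lpl were therefore lower in the SPP1nAb library and 7 of the 10 higher, while Apoe lay near 0 and ran from -0.03 to 0.20 over the alternatives tried. Lpl was close to the median of all genes tested (-0.038). The share of all genes with either sign was not computed, so this count has no background.

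The lipid-handling share of phagocytes was itself 5.84% in the IgG and 13.4% in the SPP1nAb library, and the ratios were also computed with each state given the same weight in both libraries, an alternative chosen after the data were seen. The log2 ratio then was 0.21 for Gpnmb and 0.22 for Fabp5, and neither passed 1.5-fold. It was -0.06 for Spp1 and 0.06 for Lgals3. It also moved down for Cd36, to -0.54, and for Lpl, to -0.49. Abca1 stood at 0.36, Trem2 at 0.25, Apoe at 0.20, Plin2 at 0.19 and Tyrobp at 0.13.

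Within lipid-handling cells none of the 10 genes was 1.5-fold apart between the libraries, where 2.80% of 8405 genes were higher and 2.58% lower. Trem2 was at 492 and 529.5 CPM (log2 ratio 0.11), Gpnmb at 582 and 622 (0.10), Fabp5 at 6667 and 6921 (0.05) and Plin2 at 887 and 879 (-0.01). Cd36 was at 1775 and 1211 (-0.55) and Lpl at 1796 and 1244 (-0.53), both close to the limit. Apoe was at 5923 and 8602 (0.54) and Abca1 at 376 and 500.4 (0.41). Of the genes named here, only Plin2 had a counting interval that held 0 (-0.06 to 0.04). None of them passed the limit and there was no replicate.

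**Figure D5:**
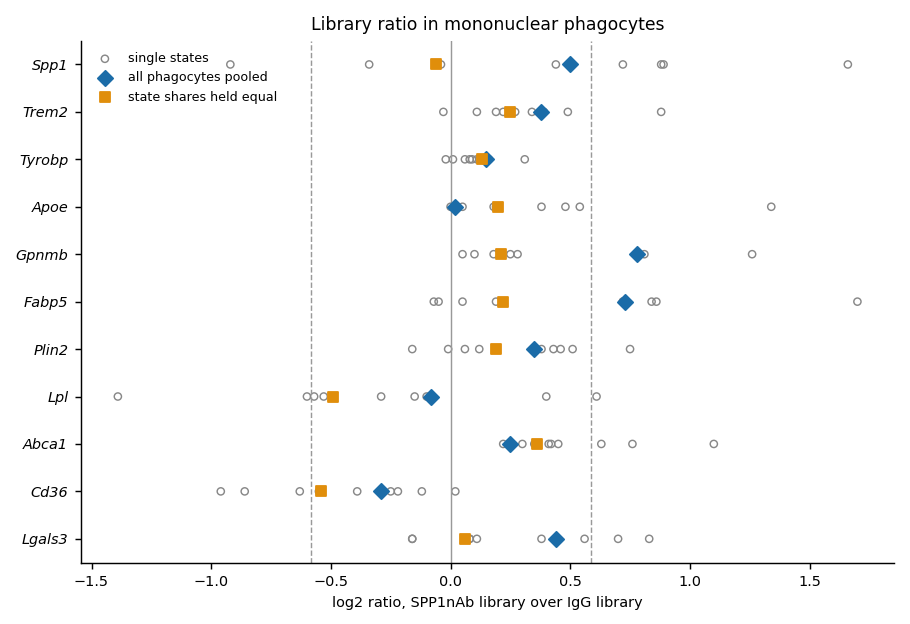
Log2 ratio of the SPP1nAb library over the IgG library for Spp1 and the 10 genes; open circles are single states with at least 100 UMIs (circulating-type monocytes left out for their few cells), blue diamonds all phagocytes pooled, and orange squares the ratio with state shares held equal; dashed lines mark 1.5-fold. Gpnmb moves from 0.78 to 0.21 and Fabp5 from 0.73 to 0.22, whereas Cd36 moves from -0.29 to -0.54.

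Cd36 was lower with SPP1nAb in 9 of 10 states and Lpl in 8 of 10, while Abca1, Apoe, Trem2, Tyrobp and Gpnmb were each higher in 9 of 10, Gpnmb having no UMI in the remaining state. The states share the same 2 libraries and are not repeats, and the share of all genes with such signs was not computed. Some signs lay within counting error, as for Cd36 in cycling cells (-0.12, -0.33 to 0.10) and Trem2 in circulating-type monocytes (3 and 6 UMIs). In the Dcstamp and Ear2 state 4 of the 10 genes (Trem2, Apoe, Fabp5, Abca1) were 1.5-fold higher and 2 (Lpl, Cd36) lower, where 7.77% of 7027 genes were 1.5-fold higher and 4.58% lower. There Apoe was at 827 CPM in the IgG and 2087 in the SPP1nAb library (log2 ratio 1.34, 1.27 to 1.41) and Trem2 at 89.2 and 164 (0.88). Lpl was at 1853 and 709 (-1.39, -1.45 to -1.33) and Cd36 at 1024 and 528 (-0.96). This state held 348 and 1121 cells.

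Resident cells had 3 of 9 genes 1.5-fold higher and 1 lower, where 3.77% and 3.64% of all genes were. Fabp5 was at 96.5 and 314 CPM (log2 ratio 1.70) and Cd36 at 1049.6 and 579 (-0.86). Plin2 was at 201 and 338 (0.75) and Lgals3 at 440.0 and 713 (0.70). Stray RNA moved with these values, at an estimated 1.24% of UMIs in IgG and 4.63% in SPP1nAb resident cells. With that part removed, Fabp5 was at 84.8 and 232 (1.45), Plin2 at 199.6 and 334 (0.74), Lgals3 at 427 and 632 (0.57) and Cd36 at 1057 and 586 (-0.85), so that Lgals3 no longer passed 1.5-fold and 2 genes remained higher. Spp1 in the same cells turned from 27.9 and 51.6 to 21.5 and 11.2. In classical monocytes Spp1 was at 711 and 375 (log2 ratio -0.92), while none of the 10 genes passed 1.5-fold there, where 1.97% of genes were higher and 2.11% lower.

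In cycling cells 4 of 9 (Fabp5, Lpl, Abca1, Lgals3) were 1.5-fold higher and 0 lower, against 5.14% and 4.31% of all genes, on 118 and 155 cells. Abca1 was at 99.0 and 212 CPM there and Lgals3 at 969 and 1727. In Gpr34 and Fcrls cells Gpnmb and Fabp5 were higher and Cd36, at 538 and 347, was lower, against 3.00% and 3.20%. In MHC-II-high cells Gpnmb, at 21.9 and 52.5, and Fabp5, at 481 and 872, were higher and 0 were lower, against 2.71% and 3.78%. In interferon-response cells Abca1 alone was higher, at 286 and 444, against 3.35%, and 0 were lower against 2.99%. In inflammatory cells Lpl alone was lower, at 603 and 399, against 2.30%, and 0 were higher against 2.53%. Circulating-type monocytes had 5 genes to test, with Fabp5 lower and 0 higher, against 3.78% and 4.22%. None of the 10 passed in unstated cells, where 2.02% of genes were higher and 3.98% lower.

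Lists of related genes were set beside the 10. They too were chosen with earlier results of these data known, so the shares of all genes are not a fair background for them. Of 18 genes of TREM2 and TYROBP signaling, such as the kinase Syk, 0 were 1.5-fold higher and 1 lower between libraries (Siglech, at 8.33 and 2.00 CPM), where 2.95% and 8.21% of all genes were, with a median log2 ratio of -0.02 against -0.04 over all genes. In lipid-handling cells 0 were 2-fold higher and 6 were 2-fold lower in both libraries (6.41% of all genes were). Apart from Cd33, the 6 were at low levels, none above 4.54 CPM in lipid-handling cells of either library. Syk was at 280.0 against 253 in the IgG and 309.6 against 299.6 in the SPP1nAb library. Adam10 and Adam17, proteases that cleave TREM2 from the cell surface, had log2 ratios of 0.10 and 0.09 and of -0.02 and -0.00. Cd33 was at 17.3 against 96.7 and 22.6 against 69.7. Csf1r and Siglech of this list also mark a cell class and Treml4 a state, so the gating fixes the level of Treml4 in part. The list's median log2 ratio in lipid-handling cells was -0.63 and -0.50, where Trem2 had 1.43 and 1.29.

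Of 19 measured companions of the lipid-associated state, 2 were 1.5-fold higher between libraries and 0 lower (2.95% and 8.21% of all genes), and 7 were 2-fold higher in lipid-handling cells (1.27% of all genes). The higher pair were the lysosomal proteases Ctsd, at 658 and 1036 CPM (log2 ratio 0.65), and Ctsl, at 562 and 891 (0.67). In lipid-handling cells Ctsd was at 2074 against 532 and 2335 against 764, and the integrin Itgax at 77.3 against 25.3 and 73.4 against 29.3. Cst7, often listed with this state, was at 2.01 and 2.95 over all phagocytes. It was lower in lipid-handling cells of the SPP1nAb library, at 1.42 against 3.28. In the IgG library it was at 1.64 against 2.05, on few UMIs, since 3 UMIs there make 0.702 CPM. That difference has no interval and is not read. Ank and Cd52, named after their values were seen, were lower in lipid-handling cells of both libraries, with log2 ratios of -0.60 and -0.87 and of -0.30 and -0.25. The list's median log2 ratio in lipid-handling cells was 0.78 and 0.70, against -0.09 and -0.07 over all genes.

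Of 31 sterol and lipid handling genes tested between libraries, 2 were 1.5-fold higher and 0 lower, where 2.95% and 8.21% of all genes were. These were Angptl4, an inhibitor of lipoprotein lipase, at 0.806 and 2.16 CPM, and Npc1, which carries cholesterol out of lysosomes, at 116 and 175. In lipid-handling cells 3 of 29 were 2-fold higher in both libraries, against 1.27% of all genes. Fabp4, a fatty acid carrier, was at 778 against 66.0 and 659 against 86.3. The sterol-sensing nuclear receptor Nr1h3 was at 34.0 against 9.15 and 30.5 against 9.17, and the exporter Abcg1 at 152 against 65.6 and 179 against 87.2. The hormone-sensitive lipase Lipe, named after its values were seen, was the 1 that was 2-fold lower, at 4.68 against 12.2 and 4.97 against 10.2. The list's median log2 ratio was 0.14 between libraries and 0.43 and 0.21 in lipid-handling cells.

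Of 6 tested homeostatic microglia-type genes, 3 were 1.5-fold lower with SPP1nAb and 0 higher, where 8.21% and 2.95% of all genes were. P2ry12 was at 45.0 and 25.8 CPM (log2 ratio -0.80), Cx3cr1 at 88.0 and 58.4 (-0.59) and Gpr34 at 112 and 48.9 (-1.19). P2ry12 and Gpr34 also mark the Gpr34 and Fcrls state, which held 13.3% of phagocytes in the IgG and 7.86% in the SPP1nAb library. The list's median was -0.36. P2ry12 and Gpr34 were also the 2 genes of the list that were 2-fold lower in lipid-handling cells, which the gating fixes in part, since a cell takes the state it scores highest on. Olfml3 stood at 11.9 against 6.79 and 19.0 against 8.28.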

How the data were processed

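Per the labels and the file headers, the deposited values are UMI counts per gene and barcode, made by the authors with Cell Ranger (9.0.1 in the matrix headers, 8.0.0 in the submitters' processing notes) on GRCm39; the number of deposited columns of other samples was 0. Barcodes with more than 200 genes and under 10% mitochondrial UMIs were kept, and the 10% with the highest doublet scores, taken from neighbours among 2 simulated doublets per barcode, were removed from each library. A cell took the class with the highest share of its markers detected, with at least 3 detected; the ungated share was 11.8% and 9.67%. Phagocyte states used the mean scaled log level of each list, with a score of at least 0.5 and at least 3 markers (2 for lists of 4); that form and limit were chosen after the cells were seen. The 10 genes and all lists were chosen with earlier results of these data known, so no share of all genes given above is a fair background for them. Named genes are the 10, Spp1, from each list the 3 with the largest library ratio and the 3 with the highest lipid-handling ratio, and the 5 most like Trem2, Gpnmb and Spp1; where fewer are printed, the others are left out for length. Clec7a had no matching row.

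Counts were summed by class and library and given as CPM (UMIs per 1000000) with exact 95% Poisson intervals, and ratios with exact conditional intervals; shares of cells have exact Clopper-Pearson intervals. The limit for 0 UMIs is 3 UMIs. Genes with at least 100 UMIs were tested against a fold of 1.5 (libraries) or 2 (lipid-handling cells). PCR copies are collapsed by UMI, and intervals cover counting error only. Stray RNA was estimated as the level of mesenchymal genes in phagocytes over that in the whole library, taken as the stray profile. Coordinates of genes are from GENCODE on GRCm39. Scripts, tested on simulated data, used Python 3.11.15, scipy 1.17.1, scikit-learn 1.9.0 and leidenalg 0.10.2. Alternatives covered the filters, doublets, gates, Leiden clusters, stray RNA, depth, cell weights, pseudocount and correlation type.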

Additional observations from a re-analysis of the deposited data

Results flagged for a closer look

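Fabp5 differed between states in the direction of its library ratio. Its log2 ratio of SPP1nAb over IgG was 1.70 in resident, 0.84 in Gpr34 and Fcrls, 0.86 in MHC-II-high, 0.72 in Dcstamp and Ear2 and 0.72 in cycling cells, but -2.58 in circulating-type monocytes, on 43 and 35 cells and 91 and 12 Fabp5 UMIs. Lpl was past 1.5-fold in opposite directions, with a log2 ratio of 0.61 in cycling cells, -0.60 in inflammatory cells and -1.39 in the Dcstamp and Ear2 state. With 1 library per group, these differences between states were not tested.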

How the results depend on the processing

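No paired analysis was possible because each group has 1 library, and for the same reason no replicate could be left out. The count of 2 genes past 1.5-fold between libraries was the same under 9 alternatives and 0 with state shares held equal (chosen after the data were seen). The count of 6 genes at least 2-fold higher in lipid-handling cells was also 6 under the other alternatives run, and was 3 (Trem2, Gpnmb, Fabp5) where Leiden clusters replaced the per-cell gates; there Plin2 had log2 ratios of 0.99 and 0.68, Lgals3 1.49 and 0.75, Lpl 1.41 and 0.93, and Cd36 1.13 and 0.78. The count of 6 genes higher in Spp1-positive phagocytes was the same under the 8 alternatives run. The median r with Spp1 was between 0.47 and 0.65, except for 0.38 without the lipid-handling gate, an alternative chosen after the data were seen, as were the other forms of the state score. The library ratio of Apoe changed sign in 2 of 10 alternatives, between -0.03 and 0.20; the other 9 genes kept their sign in all 10, with Gpnmb from 0.21 to 0.87 and Lgals3 from 0.06 to 0.50. The causes were not tested. Rare states, with under 100 UMIs for Gpnmb in resident, cycling and circulating-type cells, limit what can be read there.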
